A study of Salmo salar with 26 samples.

Results

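Lens transcript levels were compared between 8 triploid Atlantic salmon (Salmo salar) with cataract (3N+) and 6 diploid Atlantic salmon with cataract (2N+). These 14 libraries were taken by their labels from the 26 of the study, whose others are 6 diploids (2N-) and 6 triploids (3N-) without cataract. Each library is the lens RNA of its own fish, diploid fish carry a pair of chromosome sets and triploids carry an extra set, and the labels name no treatment other than sorting by ploidy. Poly(A) RNA was sequenced, and the processed values describe 26681 unigenes, which are transcript contigs assembled from the reads. The labels say neither how triploidy was induced nor how severe each cataract was, and they name no transgene or other allele.

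The vertebrate lens is a single tissue of elongated fibre cells covered at the front by an epithelium. Fibre cells fill with crystallins, stiffen around beaded filaments of phakinin and filensin, and lose their nuclei, whereas the epithelium keeps dividing and secretes the capsule. Triploid salmon are farmed because they are sterile, and cataract is a known welfare problem in them. Their larger nuclei are in general accompanied by larger and fewer cells.

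Values are reads scaled by contig length and counted reads (RPKM), divided by a scaling factor per library that corrects for composition. Log2 changes are 3N+ minus 2N+ on log2 of that scaled RPKM plus 0.5, tested with limma over all unigenes, and adjusted p is Benjamini-Hochberg. The libraries held 9.76 to 11.95 M counted reads, typically 14 reads for a unigene (the median over all libraries), and 19532 unigenes had enough reads to be tested. A gene name is the protein that a contig resembled most, and because the salmon genome is duplicated, a contig can stand for part of a gene or for several closely alike copies. In bulk lens RNA, fewer cells of a type and less RNA per cell cannot be told apart. The scaling factors averaged 1.16 ± 0.215 (SD, n = 6) in 2N+ and 0.988 ± 0.132 (SD, n = 8) in 3N+. As deposited, the RPKM values of the median unigene were lower in 3N+ by -0.21 on the log2 scale, against -0.01 after scaling, a shift of 0.2 that applies to every change given here.

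Few differences between triploid and diploid lenses with cataract were resolved. A single transcript passed an adjusted p of 0.05, which is 0.00512% of the 19532 tested, and it was lower in triploids. At an unadjusted p below 0.05 there were 1484 unigenes (7.6%), of which 900 were higher (4.61%) and 584 lower (2.99%) in 3N+. That balance depended on the scaling, with 276 higher (1.41%) and 2069 lower (10.6%) on RPKM as deposited. Leaving out single lenses moved the 900 between 555 and 1334, by more than 1.5 times without lens 2 of 2N+ (581) or lens 3 of 2N+ (555). The groups did not overlap at 14 unigenes (0.0717%), with 10 higher (0.0512%) and 4 lower (0.0205%) in triploids, and on RPKM as deposited at 8 higher (0.041%) and 32 lower (0.164%). The comparison had the precision to bound most changes. The median standard error was 0.21, and the 95% interval of the change lay within 2-fold for 16889 unigenes (86.5%) and within 1.5-fold for 9303 (47.6%). Changes beyond 2-fold in either direction were estimated for 189 unigenes (0.968%). The spread between lenses was alike, with a median SD of 0.36 on the log2 scale in both groups and a larger SD in 2N+ for 49.8% of unigenes.

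The transcript that fell in triploids was Unigene10394, a contig of 935 bases that resembles an uncharacterized zebrafish protein (LOC792578), whose role is not known here. In 2N+ it ran from 5.76 through a median of 7.09 to 9.26 scaled RPKM. In 3N+ it ran from 0.895 through 2.31 to 2.93. All 8 triploid lenses lay below all 6 diploid lenses, on 10 to 30 reads in triploids and 59 to 130 in diploids. Its change was -1.57 (SE 0.26, adjusted p = 0.0492). The fish without cataract, which enter the fit through its shared estimate of the spread and not through either group mean of that change, showed the same order, with 8.56 to 19.6 scaled RPKM in 2N- and 0.798 to 4.29 in 3N-. There the change of Unigene10394 was -2.1 (adjusted p = 0.00117), all 6 triploid lenses lay below all 6 diploid ones, and the difference between both changes was not resolved (0.52, SE 0.39, unadjusted p = 0.188). The call rested on most of the lenses, although the size moved little. Leaving out a single lens gave changes from -1.63 to -1.45 and adjusted p-values from 0.0317 to 0.275, below 0.05 in 4 of the 14 cases. The call was lost without lens 2, 3, 5 or 6 of 2N+, and without lens 1, 2, 4, 5, 7 or 8 of 3N+.

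The next in order of p were Unigene8661, CL18.Contig2 and Unigene7852, with higher values in triploids, and none of them passed. Unigene8661, Unigene7852 and CL3071.Contig1, which lies further down that order, were added to the named transcripts after their values were seen. CL18.Contig2 resembles HARBI1, a nuclease-like protein descended from the transposase of Harbinger DNA transposons. It ran from 3.78 through 6.15 to 8.56 scaled RPKM in 2N+ and from 9.23 through 20.4 to 29.0 in 3N+. All 8 triploid lenses lay above all diploid ones, and the change was 1.55 (SE 0.29, adjusted p = 0.0842). Unigene8661, which had no protein hit, ran from 3.89 through 7.79 to 8.8 in 2N+ and from 9.5 through 27.8 to 33.4 in 3N+. Its groups did not overlap either, and the change was 1.72 (SE 0.3, adjusted p = 0.0545). On RPKM as deposited, 7 of 8 triploid lenses exceeded every diploid lens in Unigene8661. Unigene7852, also without a hit, had medians of 7.63 and 23.2 (change 1.21, adjusted p = 0.204), and CL3071.Contig1 had medians of 7.14 and 21.8 (change 1.44, adjusted p = 0.274). In both of these, 7 of 8 triploid lenses exceeded every diploid lens. The same triploid lenses were low in all 4 transcripts. Lens 3 of 3N+ held 9.3, 9.5, 7.39 and 8.31 scaled RPKM of CL18.Contig2, Unigene8661, Unigene7852 and CL3071.Contig1. Lens 6 of 3N+ held 9.23, 10.1, 10.8 and 10.1. The other 6 triploid lenses had at least 16.9 of each, and no diploid lens with cataract exceeded 10.6 of any of them. Among fish without cataract a single triploid, lens 1 of 3N-, was the lowest of its group in the same 4 transcripts, at 12.0, 14.7, 17.5 and 12.1.

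**Figure D1:**
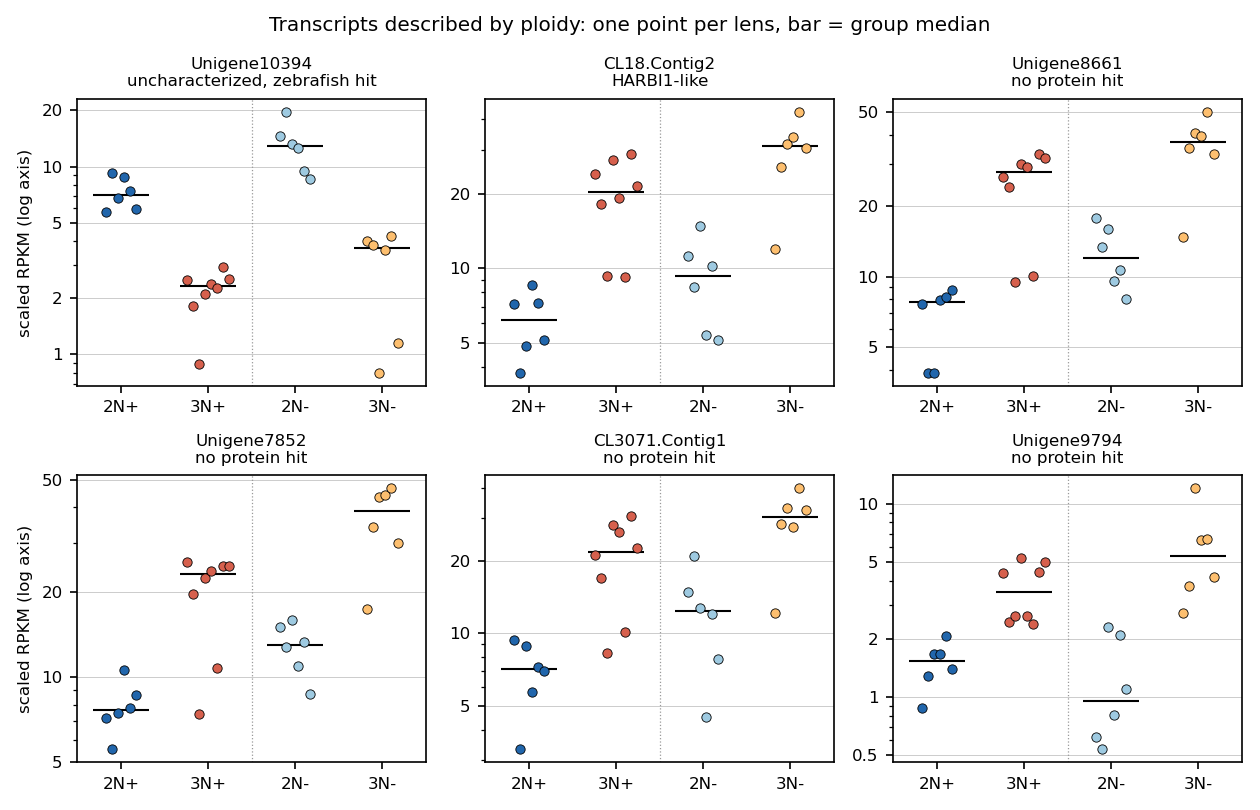
Scaled RPKM on a log axis of 6 transcripts in the 26 lenses, 1 point per lens with a bar at the group median, lenses with cataract left of the dotted line and lenses without cataract right of it. Unigene10394 lies lower in both triploid groups; in CL18.Contig2, Unigene8661, Unigene7852 and CL3071.Contig1 most triploid points lie higher, and lenses 3 and 6 of 3N+ and lens 1 of 3N- are the lowest of their groups.

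The ploidy contrast in fish without cataract shares no fish with the contrast in fish with cataract, although both were tested with 1 estimate of the spread, so values for the same transcripts can be set side by side. Fish without cataract were not of like weight, at 110 to 345 g in 2N- and 280 to 700 g in 3N-. The part of body weight in their ploidy contrast was not tested. In that contrast, 11 unigenes passed (0.0563%) and 9.83% had an unadjusted p below 0.05 (limma). Of the 20 unigenes with the smallest p in cataract lenses, 20 had the same sign without cataract and 11 of them (55.0%) also had an unadjusted p below 0.05 there. Over all unigenes tested, 57.9% had the same sign, 6.4% also had that p without cataract, and 1.04% had it in both contrasts. Among the 100 with the smallest p the shares were 74.0% and 26.0%, and among the 1484 with an unadjusted p below 0.05 (limma) they were 67.0% and 13.7%. The 20 named genes described below are another set, as each has a protein hit. Of these named genes, 14 (70.0%) had the same sign without cataract, and 7 (35.0%) also had that p there. Of the 20 unigenes with the smallest p, 17 were higher in triploids and 5 (25.0%) had a protein hit, against 53.5% of all unigenes tested. Across the 19532 unigenes the changes in both contrasts had a Pearson r of 0.28, given as a description since unigenes of a library share its depth and composition. Unigene9794, without a hit, was called without cataract (1.86, adjusted p = 0.00715). With cataract it ran from 0.877 to 2.07 scaled RPKM in 2N+ and from 2.39 to 5.25 in 3N+ with no overlap, a change of 1.03 (adjusted p = 0.358). On RPKM as deposited, 7 of 8 triploid lenses exceeded every diploid lens in Unigene9794. Unigene19453, also without a hit, had medians of 9.75 and 3.69 with cataract, was lower than every diploid lens in 7 of 8 triploids, and changed by -1.42 with cataract and -0.97 without. Unigene9794 and Unigene19453 were added after their values were seen.

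Beside Unigene10394 and CL18.Contig2, the 18 other named genes of smallest p had adjusted p-values from 0.274 to 0.358, and none passed. They are given as measured differences. Several make or handle proteins. The mitochondrial leucyl-tRNA synthetase (Unigene9549), which charges tRNA for mitochondrial translation, had medians of 4.24 scaled RPKM in 2N+ and 7.71 in 3N+, a change of 0.71 with cataract and 0.58 without. A ubiquitin-conjugating enzyme named E2 D4 (CL1574.Contig1), which passes ubiquitin to target proteins, ran from 151 to 277 scaled RPKM in 2N+ and from 253 to 432 in 3N+. In 5 of 8 triploid lenses the E2 D4 transcript exceeded every diploid lens, and its changes were 0.63 with cataract and 0.47 without. The F-box only protein 42 transcript (Unigene6395), a substrate adaptor of ubiquitin ligases, changed by 0.43, and that of U3 small nucleolar RNA-associated protein 14 (Unigene9550), needed for ribosome assembly, by 0.59. The 60S ribosomal protein L5 contig (Unigene7200) had medians of 43.8 and 55.6 scaled RPKM and changed by 0.40. On these values 7 of 8 triploid lenses lay above every diploid lens, but on RPKM as deposited 2 of 8 did, with a change of 0.18. For polyglutamine-binding protein 1 (Unigene9009), a splicing-related nuclear protein, the medians were 11.2 and 16.8 and the change was 0.48.

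Other named genes belong to signalling and to less known families. A class II phosphatidylinositol 3-kinase (Unigene10676), a lipid kinase of membrane traffic, had medians of 2.47 and 4.76 scaled RPKM and changed by 0.65 with cataract and by 0.70 without. S100-A14 (Unigene9480), a calcium-binding protein family member, ran from 2.34 to 5.51 in 2N+ and from 4.08 to 12.1 in 3N+. Its groups overlapped, with 6 of 8 triploid lenses above all diploid ones, and it changed by 0.91 with cataract and by 0.95 without. The FAM72A-like transcript (CL101.Contig2) ran from 3.01 to 6.17 in 2N+ and from 6.38 to 9.48 in 3N+. The FAM72A-like groups did not overlap, and the change was 0.62, against 0.16 without cataract. The T-complex protein 11-like transcript (CL397.Contig2, 0.63), leucine-rich repeat-containing protein 20 (Unigene7662, 0.63), an uncharacterized transcript (Unigene4398, 0.62) and an unnamed protein product (Unigene9197, 1.22) were also higher in triploids. Thymosin beta (Unigene2963), which binds actin monomers, ran from 12.3 to 25.1 scaled RPKM in 2N+ and from 6.81 to 16.1 in 3N+. It lay below every diploid lens in 5 of 8 triploids and changed by -0.69, against 0.02 without cataract.

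**Figure D2:**
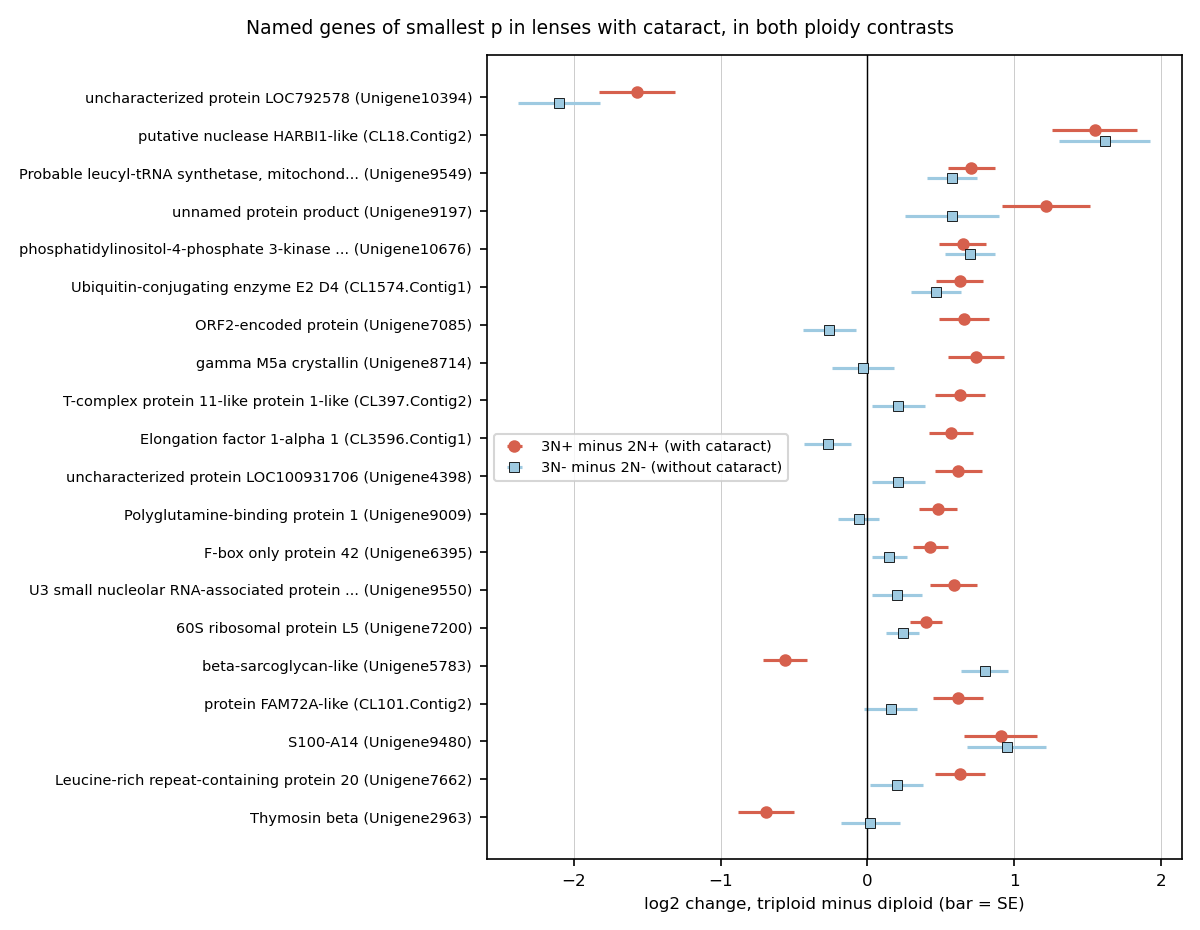
Log2 change between triploids and diploids of the 20 named genes with the smallest p in lenses with cataract, ordered by p from the top, with bars of 1 SE; circles are 3N+ minus 2N+ and squares 3N- minus 2N-. CL18.Contig2 lies at about the same place in both contrasts (1.55 and 1.62), and Unigene10394 at -1.57 with cataract and -2.1 without. Beta-sarcoglycan-like (Unigene5783) lies at -0.56 with cataract and 0.80 without.

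On RPKM as deposited, which carry the shift of the median given above, 10 unigenes passed (0.0512%), 5 in each direction. They include Unigene10394 (adjusted p = 0.00378), CL18.Contig2 (0.0371), Unigene8661 (0.014), the E2 D4 transcript CL1574.Contig1 (0.014), gamma M5a crystallin Unigene8714 (0.00378) and thymosin beta Unigene2963 (0.00378). Of the 10, 1 was shared with the scaled values.

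Ploidy changes of opposite sign with and without cataract were common, since the sign was the same for 57.9% of unigenes, and the difference between the contrasts was resolved for 1. Beta-sarcoglycan-like (Unigene5783), a component of the membrane complex that ties the cytoskeleton to the matrix in muscle, was the single unigene whose difference between both contrasts passed (-1.36, SE 0.22, adjusted p = 0.0341, 0.00512% of unigenes). With cataract it ran from 6.69 through 7.57 to 8.3 scaled RPKM in 2N+ and from 3.19 through 4.7 to 7.05 in 3N+, a change of -0.56. Without cataract it ran from 3.32 to 5.47 in 2N- and from 5.54 to 10.4 in 3N-, a change of 0.80. The fish of 2N- and 3N- also differed in weight, and the part of weight in this difference was not tested. The contig has 273 bases and 9 to 34 reads per lens in the cataract groups, and the call was lost on RPKM as deposited. It was also lost when any single lens of 2N+, or lens 4, 5, 7 or 8 of 3N+, was left out. Neuropeptide Y (Unigene12468), a peptide transmitter, was added to the named genes after its values were seen. It had medians of 5.22 and 2.32 scaled RPKM with cataract and of 3.05 and 5.96 without, which are changes of -0.99 and 0.89 (unadjusted p of the difference = 6.7e-05, adjusted p = 0.389). The ORF2-encoded transposon transcript (Unigene7085) did not overlap on scaled RPKM between 2N+ (8.56 to 10.6) and 3N+ (11.1 to 22.0). Its change was 0.66 with cataract and -0.26 without. On RPKM as deposited its groups overlapped, with 6 of 8 triploid lenses above every diploid lens and a change of 0.45. Elongation factor 1-alpha 1 (CL3596.Contig1) changed by 0.57 with cataract and by -0.27 without.

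Most crystallin contigs had positive changes in lenses with cataract on the scaled values, and none passed. Of 61 tested contigs, 56 had a positive change and the median change was 0.31, against 48.1% positive and a median of -0.01 over all unigenes. At an unadjusted p below 0.05 (limma), 23 were higher and 1 lower, against 4.61% and 2.99% of all unigenes. Leaving out single lenses moved the 23 between 12 and 36, by more than 1.5 times without lens 2 (15), 3 (12) or 4 (36) of 2N+, and the median between 0.22 and 0.43. By voom with sample quality weights, 46 were higher and 1 lower at that p, against 10.8% and 7.44% of all unigenes. In that fit 3 crystallin contigs passed, gamma M5a (Unigene8714), gamma-crystallin B (Unigene6143) and gamma M2b (Unigene39), where 0.282% of all unigenes did. On RPKM as deposited the crystallin median was 0.09, with 43 of 61 positive, against -0.21 and 18.9% positive over all unigenes. Without cataract the crystallin median was -0.05 on the scaled values. Gamma M5a crystallin (Unigene8714), a structural protein of fish fibre cells, was 8660 ± 3155 scaled RPKM (SD, n = 6) in 2N+ and 14046 ± 2872 (SD, n = 8) in 3N+. Its values ran from 5736 through 7440 to 13453 in 2N+ and from 9672 through 14008 to 17343 in 3N+, and the change was 0.74 (adjusted p = 0.35). Diploid lenses 1 and 4, at 11639 and 13453, lay among the triploids, whereas diploid lenses 2, 3, 5 and 6 lay below all of them. Other gamma crystallins, added after their values were seen, had changes of 0.69 (gamma-crystallin B, Unigene6143), 0.69 (gamma M2b, Unigene39) and 0.58 (CL403.Contig1). The most abundant crystallin contigs moved less. Their changes were 0.28 for beta-crystallin B2-like (CL1905.Contig1), 0.14 for gamma-crystallin M2-like (CL3805.Contig1) and 0.41 for another gamma-crystallin B contig (Unigene6863). As a share of reads, crystallins took 40.9 ± 2.81% (SD, n = 6) in 2N+ and 41.8 ± 1.68% (SD, n = 8) in 3N+.

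The beaded filament proteins were measured by phakinin and filensin contigs, none of which passed. A phakinin-like contig (CL984.Contig1) ran from 1701 through 2234 to 3941 scaled RPKM in 2N+ and from 2233 through 3902 to 4809 in 3N+, a change of 0.59 (adjusted p = 0.486). The groups overlapped, with diploid lenses 1 and 4 at 3489 and 3941, well among the triploids. For another phakinin contig (CL984.Contig2) the change was 0.54, and for a filensin-like contig (CL655.Contig1) it was 0.33 with a 95% interval from -0.02 to 0.67 (0.10 as deposited); both were added after their values were seen. The lens fibre list as a whole had 14 of 24 positive changes and a median of 0.11 (-0.11 as deposited), with 5 higher and 1 lower at an unadjusted p below 0.05, against 4.61% and 2.99% of all unigenes. Calpain-3-like (Unigene7886), a lens protease, had medians of 233 and 341 scaled RPKM, and 6 triploid lenses lay above and 2 below every diploid lens.

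Connexin 43, the gap junction protein of the lens epithelium, varied widely between lenses of both ploidies. It is 1 member of a lens epithelium list with 6 of 16 tested contigs positive and a median of -0.13, against 48.1% and -0.01 over all unigenes. In that list 0 were higher and 1 lower at an unadjusted p below 0.05 (limma), against 4.61% and 2.99% of all unigenes. Its 3 most abundant members did not move alike, with changes of -1.01 for connexin 43 (SE 1.23), -0.2 for vimentin (Unigene7433) and 0.31 for Sox-2 (CL858.Contig1). Connexin 43 (CL2590.Contig1) ran from 0.56 through 50.9 to 109 RPKM as deposited in 2N+ and from 1.42 through 6.16 to 73.4 in 3N+. The means were 52.2 ± 48.2 (SD, n = 6) and 22.5 ± 29.4 (SD, n = 8), a difference of -29.7 (exact permutation p = 0.164, adjusted p = 0.369 over 9 measures). Above 15 RPKM lay 4 diploid and 3 triploid lenses. Gamma M5a crystallin (Unigene8714) was lower in these lenses, at 5736 to 7991 scaled RPKM in the 4 diploids and 9672 to 12790 in the 3 triploids. Below 15 RPKM lay diploid lenses 1 and 4, with 11639 and 13453 of gamma M5a, and 5 triploid lenses with 12582 to 17343. With connexin 43 as a covariate over all libraries, 50 of 61 crystallin contigs were positive with a median change of 0.19. In that fit 28 were higher and 1 lower at an unadjusted p below 0.05, against 4.56% and 3.34% of all unigenes, and gamma M5a passed (change 0.61, adjusted p = 0.0352), as did 0.0358% of all unigenes. Collagen alpha-5(IV) (CL2687.Contig1), a chain of the lens capsule made by the epithelium, lay at 113 to 260 scaled RPKM in the 7 lenses above 15 RPKM of connexin 43 and at 28.5 to 89.9 in the others, in both ploidies.

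**Figure D3:**
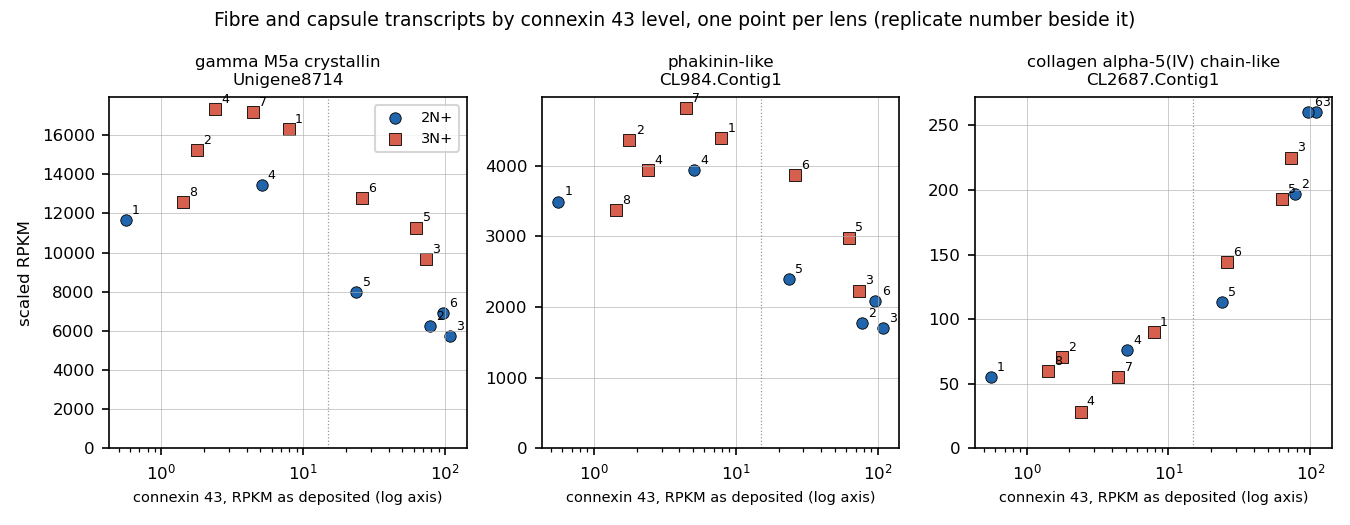
Scaled RPKM of gamma M5a crystallin, a phakinin-like and a collagen alpha-5(IV) contig against connexin 43 in RPKM as deposited (log axis) in the 14 lenses with cataract, circles 2N+ and squares 3N+, with the replicate number beside each point and a dotted line at 15 RPKM. Collagen lies higher right of the line in both ploidies; right of the line the diploid points of gamma M5a crystallin (Unigene8714, 5736 to 7991) lie below the triploid ones (9672 to 12790).

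Cytosolic ribosomal proteins make up the ribosome with ribosomal RNA. Of 88 tested contigs, 85 were positive on the scaled values and 42 as deposited, against 48.1% and 18.9% of all unigenes. The median change of these contigs was 0.22 scaled and 0.00 as deposited, against -0.01 and -0.21 over all unigenes. At an unadjusted p below 0.05 (limma), 27 contigs were higher and 0 lower, against 4.61% and 2.99% of all unigenes. After adjustment 0 passed. On RPKM as deposited 1 was higher and 1 lower at that p, against 1.41% and 10.6% of all unigenes. Leaving out single lenses moved the 27 between 1 and 56. The count was 55, 2, 1, 56, 16 and 9 without lens 1, 2, 3, 4, 5 or 6 of 2N+ and 17, 8 and 13 without lens 1, 4 or 7 of 3N+. Individual changes were small, such as 0.24 for the acidic protein P0 (CL2591.Contig2), 0.30 for L34 (CL3594.Contig2) and 0.29 for L13a (CL1539.Contig1). L34 and L13a were added after their values were seen. As a share of reads, ribosomal proteins took 4.27 ± 0.171% (SD, n = 6) in 2N+ and 4.23 ± 0.225% (SD, n = 8) in 3N+.

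The other gene lists held no called member. Extracellular matrix and capsule genes were negative in most, with 12 of 73 positive and a median of -0.21, against 48.1% positive and a median of -0.01 over all unigenes. So were ion and water transport (6 of 28, median -0.20) and sterol synthesis (4 of 28, median -0.20). In these lists 4.11%, 7.14% and 3.57% of the members had an unadjusted p below 0.05 (limma) in either direction, none above the 7.6% of all unigenes. By direction, 2 were higher and 1 lower in the matrix list, 0 and 2 in ion and water transport, and 0 and 1 in sterol synthesis. Over all unigenes these shares were 4.61% higher and 2.99% lower. The medians of these lists moved when single lenses were left out. That of the matrix list was -0.09 and -0.10 without lens 3 or 6 of 2N+, and -0.34, -0.34 and -0.33 without lens 1 of 2N+ or lens 3 or 5 of 3N+, with 9 to 26 of 73 positive over all single omissions. That of ion and water transport was -0.10, -0.09 and -0.12 without lens 3 or 6 of 2N+ or lens 4 of 3N+, and that of sterol synthesis -0.13 and -0.05 without lens 2 of 2N+ or lens 4 of 3N+. With the first component as a covariate the matrix and transport medians turned to 0.03 and 0.01. That component was computed from the same values, with the contigs of these lists among them. The fit therefore cannot show why these medians were negative, and the cause was not tested. Squalene monooxygenase (CL1181.Contig1), an early enzyme of sterol synthesis, ran from 16.1 through 22.0 to 28.5 scaled RPKM in 2N+ and from 8.5 through 14.1 to 23.2 in 3N+. It lay below every diploid lens in 5 of 8 triploids, with a change of -0.62 (adjusted p = 0.42) and of 0.19 without cataract. The median changes were 0.05 for heat shock proteins and chaperones, -0.09 for endoplasmic reticulum stress, -0.02 for antioxidants and glutathione, 0.01 for oxidative phosphorylation and 0.06 for the proteasome. They were -0.03 for the cell cycle, 0.06 for p53 and DNA damage, -0.06 for histones and chromatin and -0.03 for growth and mTOR signalling. The small heat shock protein 27 transcript (CL1826.Contig1), a lens chaperone, ran from 744 through 1040 to 1088 scaled RPKM in 2N+ and from 167 through 830 to 1091 in 3N+. Triploid lenses 4 and 7 lay lowest, at 167 and 417, and the change was -0.54. MHC and antigen presentation transcripts were negative in all 6 tested contigs (median -0.47, and -0.67 without cataract), with none at an unadjusted p below 0.05 with cataract and a median of -0.73, -0.24 and -0.29 without lens 2, 3 or 6 of 2N+.

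Of 95 tested transposon-derived contigs, 51 were positive, with a median of 0.03, 10 higher and 4 lower at an unadjusted p below 0.05, against 48.1% positive, 4.61% higher and 2.99% lower over all unigenes. On RPKM as deposited the median was -0.18, with 6 higher and 11 lower, against -0.21, 1.41% and 10.6% over all unigenes. The widest change was that of a Tf2-type retrotransposon contig (CL3629.Contig1), which ran from 1.12 through 3.22 to 17.7 scaled RPKM in 2N+ and from 1.37 through 24.6 to 474 in 3N+ (change 2.10, adjusted p = 0.707). The 4 triploid lenses 4, 5, 6 and 8 lay at 150, 86.7, 474 and 43.3, above every diploid lens, while the other 4 lay among the diploids. Without cataract the same contig reached 1.51 at most in 2N- and 87.1 in 3N-, where 3 of 6 lenses held 57.1 to 87.1. A Tc1-like transposase contig (Unigene258) ran from 641 to 1044 in 2N+ and from 809 to 1381 in 3N+, a change of 0.44.

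**Figure D4:**
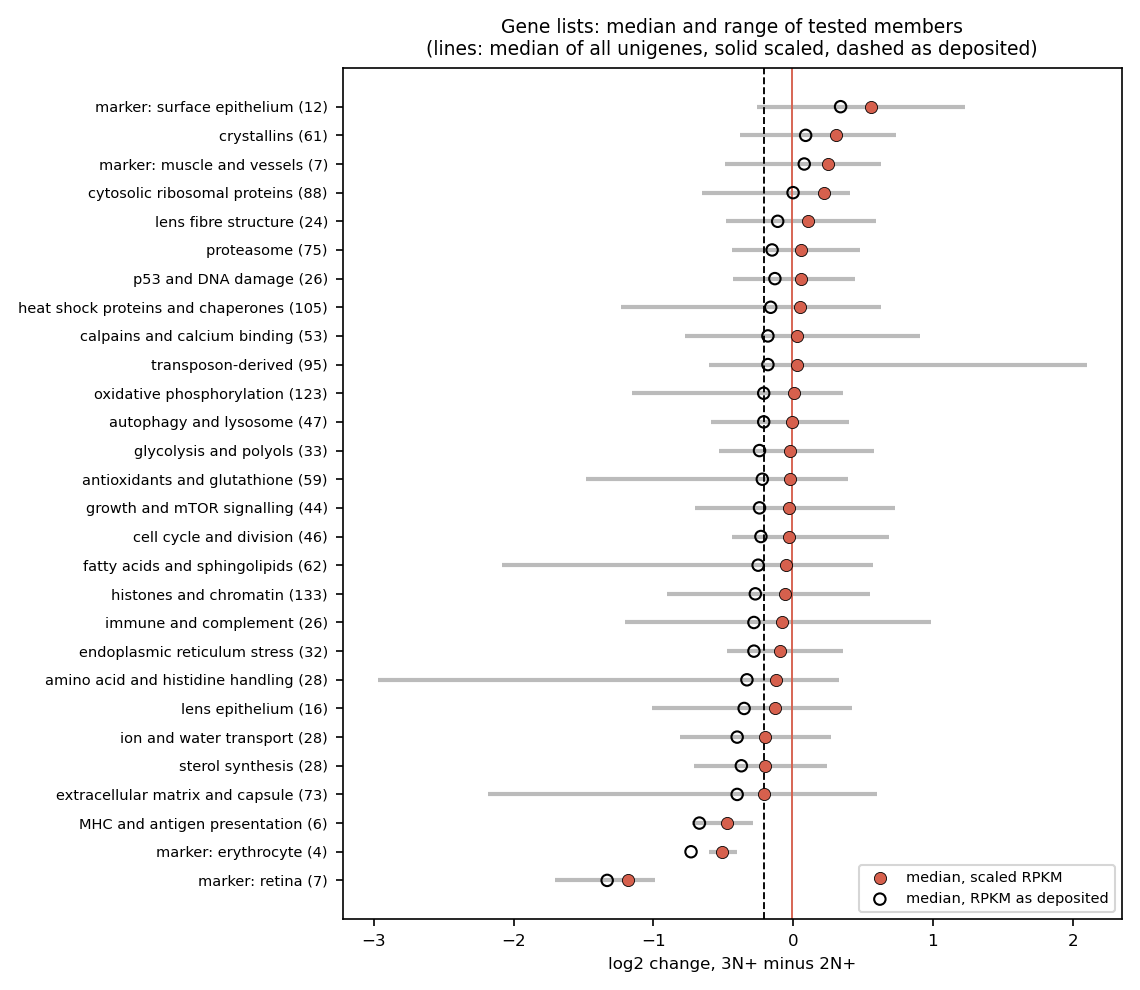
Median (filled circle) and range (grey bar) of the log2 change between 3N+ and 2N+ in each gene list with more than 1 tested member. The number tested is in parentheses, and open circles are the medians on RPKM as deposited. Vertical lines mark the median of all unigenes, -0.01 scaled and -0.21 as deposited. Crystallin, ribosomal protein, surface epithelium and muscle medians lie to the right of the matching line. Those of the matrix, sterol, transport, MHC, erythrocyte and retina lists lie to the left.

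Several sets of transcripts were high in some lenses with cataract and far lower in others, and none of them passed. Cytosolic non-specific dipeptidase (Unigene8273), which cleaves small peptides, lay at 106 scaled RPKM or more in diploid lenses 2, 3 and 6, at 96.7 in triploid lens 5 and at 0.767 or less in the other 10 lenses. The same 4 lenses held the highest levels of SPARC (CL777.Contig1), cochlin-like (Unigene650) and collagen IX (Unigene1717), which are matrix proteins. The dipeptidase change of -2.97 (SE 1.71, adjusted p = 0.705) thus contrasts 3 of 6 diploids with 1 of 8 triploids. Keratin 18-like (CL2963.Contig1) and ictacalcin (Unigene4061), an S100 protein of fish surface epithelia, formed another set. Ictacalcin lay at 903 in diploid lens 5 and at 850, 397, 1430 and 564 in triploid lenses 1, 4, 6 and 7, and between 6.59 and 233 in the other 9. Leptin b (Unigene7501), a hormone, and hepcidin (CL2143.Contig1), an iron-regulating peptide, were high in the lenses that were high in ictacalcin. Leptin b lay at 67.3 to 368 in these 5 lenses and at 33.0 or less elsewhere, and hepcidin at 26.2 to 372 in these lenses and at 39.1 in diploid lens 3. Retina transcripts were highest in single diploid lenses, with rod opsin (Unigene8815) at 1885 in diploid lens 2 and 393 in diploid lens 3. Rod opsin ran from 1.51 through 109 to 1885 in 2N+ and from 7.72 through 18.3 to 326 in 3N+, so the lowest lens was also a diploid. Without cataract it reached 172 in 2N- and 1186 in 3N-. The markers of other tissues moved with single lenses in both groups. The 7 tested retina markers had changes from -1.70 to -0.99, with a median of -1.18 that was -0.39, -0.73 and -1.84 without lens 2, 3 or 5 of 2N+, and the retina list took 0.000387 to 0.464% of reads in 2N+ and 0.00134 to 0.0588% in 3N+. The surface epithelium list (9 of 12 positive, median 0.56) took 0.0111 to 0.114% and 0.0161 to 0.19%, and the surface median was 0.13 to 0.88 without single lenses and -0.19 with keratin-18 as a covariate. That covariate is the keratin 18-like contig (CL2963.Contig1), itself a member of this list, so its fit is no separate check of the list. The erythrocyte list had 0 of 4 positive (median -0.51), but its median was 0.27 by voom with sample quality weights, 0.09 with a replicate block and 0.12 without lens 1 of 2N+. The part of these tissues in other changes was not tested.

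**Figure D5:**
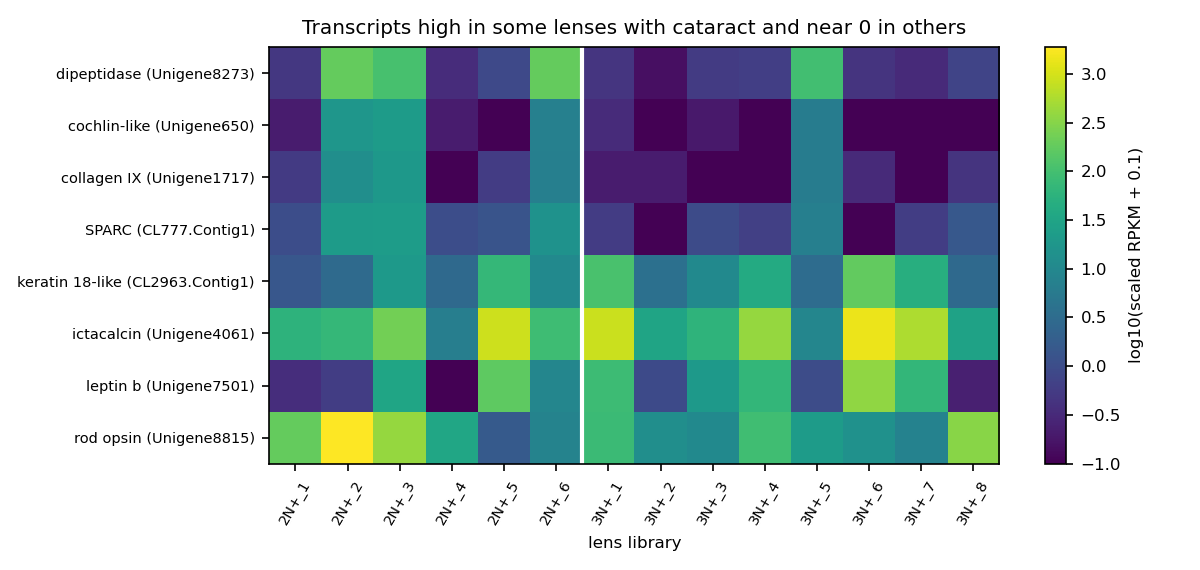
Heat map of 8 transcripts (rows) in the 14 lenses with cataract (columns, 2N+ left and 3N+ right of the white line), coloured by log10 of scaled RPKM plus 0.1. The dipeptidase, cochlin, collagen IX and SPARC rows are bright in 2N+ lenses 2, 3 and 6 and 3N+ lens 5, and the keratin 18, ictacalcin and leptin b rows in 2N+ lens 5 and 3N+ lenses 1, 4, 6 and 7.

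Transcripts known from earlier results of these data to differ between lenses with and without cataract were compared between the ploidies, and none passed. Adenosine deaminase (Unigene4383), an enzyme of purine breakdown, ran from 5.69 through 11.0 to 65.2 scaled RPKM in 2N+ and from 13.6 through 22.9 to 38.5 in 3N+. The diploid range enclosed the triploid one, through diploid lens 4 at 65.2, and the change was 0.61 (adjusted p = 0.711). The mTOR inhibitor DEPTOR (Unigene4123) had the same form, with 9.15 to 89.3 in 2N+ and 28.5 to 61.0 in 3N+ and a change of 0.73 (adjusted p = 0.637). N-myristoyltransferase 1 (Unigene8559), which attaches a lipid to proteins, had medians of 13.5 and 30.8, exceeded every diploid lens in 4 of 8 triploids and changed by 0.92 (adjusted p = 0.512). The changes were 0.13 for homer protein homolog 2-like (CL3023.Contig2), 0.21 for galectin-3-like (CL99.Contig1), -0.13 for Rab-32-like (Unigene10053) and 0.39 for Rhes-like (Unigene6759).

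The mean weights of 2N+ and 3N+ fish were close, and no difference in a measure of fish or library was resolved between these ploidy groups. Body weight was 596 ± 158 g (SD, n = 6) in 2N+ and 606 ± 221 g (SD, n = 8) in 3N+, a difference of 9.79 g (exact permutation p = 0.93). Single fish ran from 460 to 840 g in 2N+ and from 270 to 885 g in 3N+, where fish 1 and 2, at 270 and 325 g, lay below every diploid. With so few fish, a large p does not show that the weights were alike. Length was 35.9 ± 2.58 cm in 2N+ and 36.8 ± 3.85 cm in 3N+ (exact permutation p = 0.636). The condition factor, which is weight over length cubed, was 1.26 ± 0.118 in 2N+ and 1.15 ± 0.133 in 3N+ (exact permutation p = 0.148, adjusted p = 0.369). Counted reads were 11.6 ± 0.312 M and 11.0 ± 0.666 M (exact permutation p = 0.104, adjusted p = 0.369), and the scaling factors differed by -0.173 (exact permutation p = 0.0872, adjusted p = 0.369). The adjustments cover 9 measures, and all tests are two-sided. Ploidy held 8.89% of the variance of all tested unigenes over the 14 lenses, a share reached or exceeded in a fraction of 0.251 of the 3003 ways to split them (exact permutation p = 0.251, smallest possible 0.000333). The first principal component of the 14 lenses held 38.4% of the variance and the second 13.3%, and neither separated the ploidies (exact permutation p = 0.239 and 0.372).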

How the data were processed

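The authors deposited a table of RPKM values for 26681 unigenes in 26 lens libraries, with protein hits for 13784; a dash was read as 0. The sources used here do not name the assembler or aligner. Whole reads were recovered from the RPKM for 100% of unigenes within 0.01 reads. They gave library totals and TMM scaling factors (trims 0.3 and 0.05). The RPKM denominators and the contig lengths were inferred from the same RPKM, and 22 of 26 totals equalled the inferred denominators. Unigenes with 10 reads at the median library size in at least 6 libraries and 15 in total were tested. limma (trend, robust) fitted 4 group means over the 26 libraries, since the values are not counts, and its p-values measure the spread between fish. Single measures used exact permutation tests. The 20 named genes were those of smallest p with a hit and a mean log2 CPM of 1 or more; then came the most abundant members of each list and genes added after their values were seen. Members and the 30 lists were chosen with earlier results of these data known. R 4.3.3, limma 3.58.1 and Python 3.11.15 were used. The steps were tested on simulated data, and the alternatives covered scaling, pseudocount, filter, test, covariates and libraries.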

Additional observations from a re-analysis of the deposited data

Results flagged for a closer look

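The ploidy change of beta-sarcoglycan-like (Unigene5783) differed between lenses with and without cataract by -1.36 on the log2 scale, the single transcript whose difference passed adjustment.

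In 9 of 126 groups of lenses examined, 1 lens stood apart from the rest of its group. The nominal rate by chance is about 1 in 20 groups. That rate need not hold here, since many of the transcripts examined were added after their values were seen. Transcripts can also move together in the same lens. Lens 3 of 3N+ was low in Unigene10394 (0.895 scaled RPKM) and in thymosin beta (Unigene2963, 6.81). Lens 2 of 2N+ was low in 60S ribosomal protein L5 (Unigene7200, 29.5). Lens 5 of 3N+ was high in the matrix transcripts cochlin-like (Unigene650, 6.24) and collagen IX (Unigene1717, 6.19). Lens 5 of 2N+ was high in tyrosine phosphatase IVA 1 (Unigene98, 54.8), and lens 2 of 3N+ in a leucine-rich repeat and immunoglobulin domain transcript (Unigene10888, 14.6). Lens 4 of 2N+ was high in ceramide synthase 2-like (Unigene9745, 4.96) and in a tripartite motif 60-like transcript (Unigene5114, 10.7).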

How the results depend on the processing

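The count of called unigenes between 3N+ and 2N+, 1 as reported, was 10 on RPKM as deposited, 55 by voom with sample quality weights, 7 with connexin 43 and 9 with the first component as a covariate, and 4 and 3 within the libraries above and below 15 RPKM of connexin 43. It was 0 (limma) with a pseudocount of 0.1, with no filter, and with body weight or keratin-18 as a covariate. In these fits 1490, 1819, 1500 and 1571 unigenes had an unadjusted p below 0.05 (limma). Body weight was centred within each group, so that covariate adjusted no contrast for a difference in mean weight between groups. Leaving out single lenses gave 0 to 11 called unigenes, the most without lens 4 of 2N+. Then came 5 without lens 3 and 3 without lens 6 of 3N+, and 2 without lens 1 of 2N+. Between 3N- and 2N- the count, 11 as reported, was 60 as deposited, 1 by voom, 166 by voom with quality weights, 21 with body weight, 84 with connexin 43 and 117 with the first component. The difference of both contrasts, 1 as reported, gave 0 (limma) as deposited, by voom and with keratin-18 (2016, 1134 and 1169 at an unadjusted p below 0.05), 2 with connexin 43 and 3 with the first component. Without single lenses, an alternative chosen after seeing the data, it gave 0 to 1. Fits on the 14 lenses alone gave no value for these last contrasts.

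Replicate numbers did not pair the fish, since 3 of 6 same-numbered sets had residual correlations over 0.1 and 1 of 14 libraries was closest to its own number. The fit with a replicate block called 1 unigene between 3N+ and 2N+, 3 between 3N- and 2N- and 1 for the difference. The body weight difference was -0.0414 on the log2 scale and ran from -30.1 to 58.6 g without single fish. That in reads ran from -0.633 to -0.329 M and that in scaling factors from -0.225 to -0.123, with exact permutation p-values of 0.0344 without lens 5 of 3N+ for reads, and of 0.0373, 0.0342 and 0.0478 without lenses 1 and 4 of 2N+ and lens 3 of 3N+ for scaling factors. The share of variance between ploidies ran from 7.06 to 13.0%. The crystallin median was 0.34 in the lenses above 15 RPKM of connexin 43 and -0.01 below, where diploid lenses 1 and 4 are the only diploids. None of the 20 named genes changed sign under any alternative. The causes were not tested. Depth limits contigs of few reads, such as the 9 to 34 of beta-sarcoglycan-like (Unigene5783).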

Other observations

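Among transcripts added after their values were seen, adipocyte fatty acid-binding protein (Unigene2810), a lipid carrier, had medians of 10.1 scaled RPKM in 2N+ and 1.39 in 3N+ and changed by -2.08 (adjusted p = 0.544), against -1.29 without cataract. RhoN (CL2969.Contig1), a small GTPase, had medians of 0.475 and 1.94 and changed by 1.15 (adjusted p = 0.404), against -0.19 without cataract. A transposase contig (CL1639.Contig1) ran from 14.5 through 21.5 to 88.6 in 2N+ and from 36.8 through 56.0 to 82.5 in 3N+, a change of 1.03, against 0.01 without cataract. Diploid lens 4, which had the highest value of adenosine deaminase (Unigene4383, 65.2), also had the highest of this transposase contig. A leucine-rich repeat and immunoglobulin domain transcript (Unigene10888) did not overlap on scaled RPKM between 2N+ (8.03 to 9.35) and 3N+ (9.38 to 14.6). Its changes were 0.31 with cataract (adjusted p = 0.608) and 0.41 without. On RPKM as deposited the groups overlapped, with 2 of 8 triploid lenses above every diploid lens and a change of 0.1 (adjusted p = 0.729).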
